A study of Homo sapiens with 18 samples.

Results

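The expression of 10 genes of epithelial cell junctions was followed through 18 RNA libraries of SJSA cells, an osteosarcoma line with amplified MDM2 and CDK4 genes. The genes were CLCA2, LAD1, PKP1, PKP2, PKP3, PERP, DSP, JUP, SFN and CDH1, and they are 10 of the 23368 gene symbols counted. CLCA2, LAD1 and PKP1 were picked because almost none of their transcripts were counted without Nutlin, and the other 7 are junction genes taken for comparison. The genes were thus selected on their counts in the DMSO and Nutlin libraries, and their values in Nutlin against DMSO are given as a description with no test. The same holds for CLCA2, LAD1 and PKP1 wherever PD0332991 alone is set against DMSO.

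The 6 groups had 3 libraries each. They were the solvent DMSO, Nutlin at 20 µM for 6 h, PD0332991 at 10 µM for 24 h (PD24) or 30 h (PD30), and Nutlin joined to either schedule (N+PD24 and N+PD30). In PD24 and N+PD24 the inhibitor was taken away after 24 h, before the last 6 h in which Nutlin was present, and in PD30 and N+PD30 it stayed throughout. All groups were cultures of 1 cell line, and p-values measure the spread between these libraries. Nutlin blocks the binding of MDM2 to p53, and PD0332991 (Palbociclib) inhibits the kinases CDK4 and CDK6. Total counts per library ranged from 12704845 (N+PD30 replicate 1) to 40231041 (PD24 replicate 3), with a median of 29608936, so 3 counts, the floor used below, correspond to between 0.0746 and 0.236 CPM (counts divided by the library total, scaled to 1000000). Nutlin acted in every schedule, since CDKN1A, the p53 target that encodes the cell cycle inhibitor p21, had a log2 fold change of 4.56 in Nutlin against DMSO, 5.68 in N+PD24 against PD24 and 4.34 in N+PD30 against PD30 (adjusted p from 1.32e-09 to 2.98e-06).

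Desmosomes tie neighbouring epithelial cells together and anchor their keratin filaments. Cadherins of the desmoglein and desmocollin families bridge the gap between the cells, the armadillo proteins plakoglobin (JUP) and the plakophilins (PKP1, PKP2 and PKP3) bind the cadherin tails, and desmoplakin (DSP) links them to keratins. E-cadherin (CDH1) forms the adherens junction, ladinin (LAD1) is a component of the anchoring filaments under epithelia, PERP is a tetraspan membrane protein of desmosomes and a p53 target, SFN encodes the epithelial 14-3-3 sigma, and CLCA2 is a p53-inducible membrane protein of stratified epithelia. PERP, SFN and CLCA2 have each been described as p53 targets.

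The cells expressed all the mesenchymal markers looked at and part of the epithelial ones. All 10 mesenchymal markers were above 1 CPM on average in each of the 6 groups, with VIM at 2788 and FN1 at 2159 CPM in DMSO. Of 18 epithelial markers other than CDH1, 6 were above 1 CPM in DMSO, and KRT5, KRT14, RAB25 and OVOL2 were at or below 0.112 CPM there. KRT17 and KRT18 made up most of the summed epithelial level, at 784 and 211 CPM in DMSO. Of 12 desmosome genes that are no members, 8 were above 1 CPM on average in DMSO, with DSG2 at 434 CPM. Of 10 osteoblast markers, 7 were above 1 CPM in every group, while SP7, IBSP and BGLAP were near 0. The part of other cells in the results was not tested, and in such bulk libraries fewer expressing cells cannot be told apart from less RNA per cell.

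CLCA2, LAD1 and PKP1 all lie on chromosome 1. In GRCh37, the build of the deposited counts (hg19), CLCA2 occupies chr1:86889854-86922236 on the forward strand, with 14 exons in its canonical transcript. PKP1 occupies chr1:201252580-201302121 on the forward strand with 14 exons, and LAD1 chr1:201349961-201369043 on the reverse strand with 10 exons. PKP1 and LAD1 are thus separated by 47839 bases. LAD1 overlaps 1 long noncoding gene on each strand, and reads were counted with the setting for the reverse strand. The kit is not stated to keep the strand, so how far the reads of the opposite partner were kept apart from those of LAD1 is not known here. CLCA2 and PKP1 overlap no annotated gene. To let the regions before the 3 start sites be compared, the 250 bases upstream of each gene's RefSeq start (GRCh38.p14) are given 5' to 3', with every CG dinucleotide in capitals. They span chr1:86423921-86424170 (forward strand) for CLCA2, chr1:201399325-201399574 (reverse strand) for LAD1 and chr1:201283256-201283505 (forward strand) for PKP1.
CLCA2: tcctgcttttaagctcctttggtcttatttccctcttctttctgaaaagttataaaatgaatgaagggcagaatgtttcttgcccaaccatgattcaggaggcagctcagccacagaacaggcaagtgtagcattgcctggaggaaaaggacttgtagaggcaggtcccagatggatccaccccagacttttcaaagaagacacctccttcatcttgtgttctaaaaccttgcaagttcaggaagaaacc
LAD1: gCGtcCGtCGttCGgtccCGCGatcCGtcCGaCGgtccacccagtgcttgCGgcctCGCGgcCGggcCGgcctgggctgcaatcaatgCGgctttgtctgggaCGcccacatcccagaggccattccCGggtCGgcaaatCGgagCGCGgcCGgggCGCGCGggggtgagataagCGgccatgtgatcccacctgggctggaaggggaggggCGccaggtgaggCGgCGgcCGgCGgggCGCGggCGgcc
PKP1: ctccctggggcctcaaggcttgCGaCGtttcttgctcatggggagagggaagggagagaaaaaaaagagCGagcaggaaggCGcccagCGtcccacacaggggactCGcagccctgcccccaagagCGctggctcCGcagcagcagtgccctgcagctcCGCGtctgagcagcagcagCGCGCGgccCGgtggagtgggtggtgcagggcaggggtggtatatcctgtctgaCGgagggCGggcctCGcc

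The 3 sequences differ in base composition. CLCA2 had no CG dinucleotide and 44.8% G and C, LAD1 had 34 and 74.4%, and PKP1 had 17 and 67.6%, whereas the median over 27305 RefSeq promoters was 11 and 58%. The 10-base element that p53 recognises was searched in these windows, and both strands are covered at once because its pattern is its own reverse complement. No exact element was found in the promoters of the 7 members that the table held, and 5.53% of all promoters held one.

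A wider search covered 5000 bases on each side of the start site of the canonical transcript of each gene in GRCh37. It looked for a p53 full site of 20 bases, made of 2 abutting 10-base elements with the central C and G of each kept exact. With up to 1 mismatch elsewhere, the first limit tried, 215 of 19853 coding gene windows (1.08%) held a site, and PERP was the only member among them. Because neither CDKN1A nor MDM2 was found at that limit, it was raised to 2 after the first output had been seen. At 2 mismatches, 1523 windows (7.67%) held a site, among them those of the 3 members PERP, LAD1 and SFN and those of CDKN1A and MDM2. No member had a site without mismatch, which 0.146% of windows did. The sites are given on the strand of their gene, with the 4 central bases of each element in capitals, to show how those of the members compare with those beside the known targets CDKN1A and MDM2.
PERP: aggCAAGctccagCTTGttc
LAD1: ggtCTGGcctaagCTTGtcc
SFN: aggCATGcaccagCATGtcc
CDKN1A: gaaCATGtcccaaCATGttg
MDM2: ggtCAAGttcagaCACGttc

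The PERP site (chr6:138425207-138425226, 1 mismatch) lies in an intron 3340 bases after the start, and the LAD1 site (chr1:201366617-201366636, 2 mismatches) in an intron 1826 bases after it. The SFN site (chr1:27193597-27193616, 2 mismatches) lies past the end of the gene, 3966 bases from its start. The CDKN1A site (chr6:36644226-36644245) is 2256 bases upstream and the MDM2 site (chr12:69202703-69202722) is in an intron 756 bases downstream of the start. These matches describe letters only, and binding was not measured in these libraries.

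Without Nutlin, CLCA2, LAD1 and PKP1 were close to silent, and in Nutlin alone all 3 were counted in every library. CLCA2 had 0, 0 and 1 counts in the 3 DMSO libraries and 450, 327 and 193 in the Nutlin libraries, or 14.7, 10.9 and 7.11 CPM. The summed counts, each divided by the group's total, were 1026 times as high in Nutlin as in DMSO, with a 95% exact counting interval from 184 to 40581 that rests on the single DMSO count. LAD1 had no count in any DMSO library and 87, 115 and 124 in Nutlin, at least 115-fold higher against a floor of 3 counts over the DMSO group. PKP1, whose product strengthens desmosomes in stratified epithelia, also had none in DMSO and 69, 95 and 106 in Nutlin, at least 95.2-fold higher. Intervals and floors cover counting error only. Per length of the canonical transcript, the level in Nutlin was 2.77 CPM per kilobase for CLCA2, 1.43 for LAD1 and 0.584 for PKP1, against 64.0 for PERP, 17.7 for PKP2, 12.6 for JUP, 2.54 for DSP, 0.905 for SFN, 0.260 for PKP3 and 0.252 for CDH1. The 3 induced genes thus stood below PERP, PKP2 and JUP and above PKP3 and CDH1 on this scale.

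**Figure D1:**
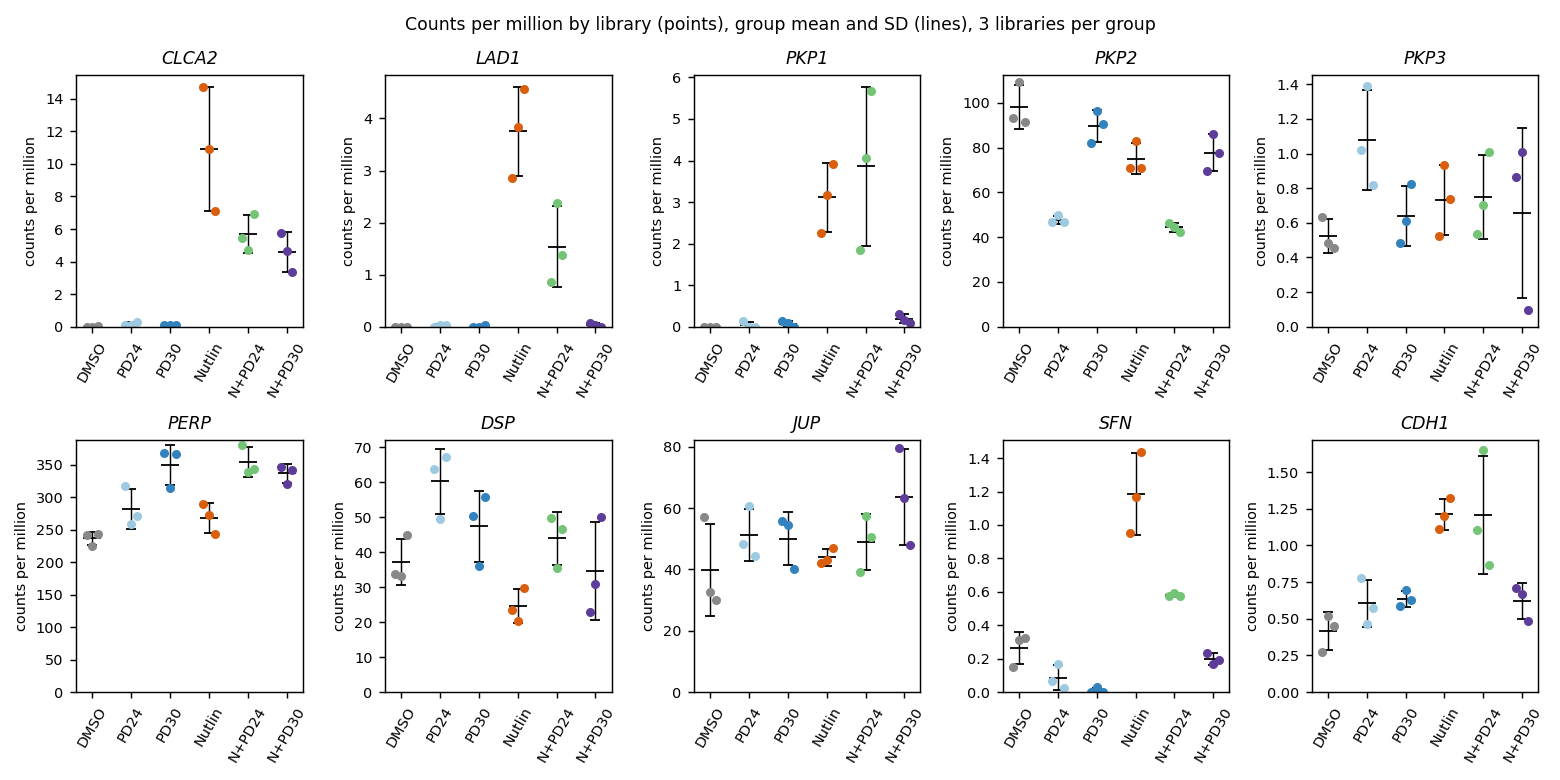
CPM (vertical axis, from 0, a scale of its own in each panel) of the 10 genes in each of the 18 libraries, by group on the horizontal axis. Points are libraries, and black lines are the group mean with 1 SD (n = 3). CLCA2, LAD1 and PKP1 stand near 0 in DMSO, PD24 and PD30, CLCA2 is high in all 3 groups with Nutlin, and LAD1 and PKP1 are high in Nutlin and N+PD24 and near 0 in N+PD30.

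Among the 7 comparison genes, Nutlin against DMSO gave uneven values. SFN was at 5, 9 and 10 counts in DMSO and 29, 35 and 39 in Nutlin, a fitted log2 fold change of 2.29. CDH1 was at 9, 15 and 14 counts in DMSO and 34, 36 and 36 in Nutlin, a log2 fold change of 1.67. Both genes are thus scarce in either group, and their libraries do not overlap between the groups. PERP was already abundant, at 237 ± 10.5 CPM in DMSO (SD, n = 3) and 269 ± 22.9 in Nutlin, a log2 fold change of 0.31. DSP went the other way, at 37.3 ± 6.52 CPM in DMSO and 24.6 ± 4.81 in Nutlin, as did PKP2, at 98.0 ± 9.81 and 75.0 ± 6.91. PKP3 and JUP had overlapping libraries, with log2 fold changes of 0.60 and 0.27. Over all 15766 genes tested in this contrast, 20.8% were called, meaning an adjusted p under 0.05 together with a log2 fold change beyond 1 in either direction. The libraries of the 2 groups did not overlap for 23.3% of genes in the upward and 38.5% in the downward direction, and nothing is read from the members beside these shares because the contrast chose them.

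The response to Nutlin was then compared in the libraries that had received PD0332991. The counts by which the genes were picked were not from these libraries, but the members were chosen with earlier results of these data known. When the inhibitor had been removed (N+PD24 against PD24), 5 of the 10 genes rose and none fell, where 16.4% of the 15492 genes tested were called and 8.48% were called higher. CLCA2, LAD1, PKP1 and SFN passed the low-count filter only through N+PD24, so 4 of the 5 could be called in 1 direction only. The p-values of these 4 and the count are thus a description, and the count is not set against these shares. CLCA2 had 4, 2 and 11 counts in PD24 and 133, 173 and 192 reads in N+PD24, and its log2 fold change was 5.03 (SE 0.36, limma adjusted p = 6.40e-06). LAD1 went from 0, 1 and 1 counts to 21, 88 and 38 (log2 fold change 4.80, SE 0.48, limma adjusted p = 4.92e-05). PKP1 went from 4, 0 and 0 counts to 45, 150 and 157 (5.96, SE 0.61, limma adjusted p = 5.78e-05). In all 3 genes every N+PD24 library was above every PD24 library, as for 17.0% of all genes.

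SFN and CDH1 rose as well, to a smaller extent. SFN had 2, 4 and 1 counts in PD24 and 14, 22 and 16 in N+PD24, with a log2 fold change of 2.60 (SE 0.48, limma adjusted p = 0.00174). SFN could be called higher only, so its p-value is a description. CDH1 had 23, 11 and 23 counts in PD24 and 27, 61 and 24 in N+PD24, with a log2 fold change of 1.03 (SE 0.33, limma adjusted p = 0.0309). The CDH1 value lies at the fold threshold, and the call was lost with scaling by total counts (0.94) and in 4 of the 6 fits that left out 1 library. PERP had a log2 fold change of 0.43 (limma adjusted p = 0.0210), under the fold threshold, and 36.4% of all genes passed the adjusted p alone. PKP2, PKP3, DSP and JUP, the other plaque genes, had log2 fold changes from -0.42 to 0.04 with adjusted p of 0.133 or more.

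With PD0332991 kept on (N+PD30 against PD30), CLCA2 was the only member called, where 3.68% of 15077 genes tested were called and 3.18% were called higher. It passed the low-count filter only through N+PD30, so it could be called higher only and its p-value is a description. It had 4, 3 and 4 counts in PD30 and 73, 139 and 69 in N+PD30, which gave 5.41 on the log2 scale (SE 0.36, edgeR adjusted p = 7.87e-05). LAD1 had 0, 0 and 1 counts in PD30 and 1, 1 and 0 in N+PD30, so both groups were under the floor and no fold is given. PKP1 had 4, 3 and 0 counts in PD30 and 4, 5 and 2 in N+PD30, a depth-corrected ratio of 2.50 with a counting interval from 0.883 to 7.59. The low-count filter removed LAD1, PKP1 and SFN from this test. SFN had 0, 1 and 0 counts in PD30 and 3, 5 and 4 in N+PD30, and without the filter it was called too (log2 fold change 3.81, edgeR adjusted p = 0.0277), whereas LAD1 and PKP1 were not (adjusted p = 0.611 and 0.353). The 6 other genes tested had adjusted p of 0.178 or more.

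The 2 Nutlin responses were compared directly by an interaction term over the 12 libraries of PD24, PD30, N+PD24 and N+PD30, where 8.33% of 15924 genes tested were called and 3.35% were called lower. LAD1, PKP1 and SFN passed the filter of this fit only through N+PD24, the group where they were high. Their p-values below, also under the alternatives, are thus a description, and the number of members called is not set against these shares. The response of LAD1 was smaller with PD0332991 kept on (log2 difference -4.20, SE 0.83, limma adjusted p = 0.00639), and so was that of PKP1 (-4.70, SE 1.03, limma adjusted p = 0.00999). The LAD1 call was lost when edgeR was applied to the recovered reads (-4.65, adjusted p = 0.279), in a gene with 3 groups at 2 counts or fewer in sum, while PKP1 passed in all 17 alternatives (adjusted p from 0.00417 to 0.0485). For CLCA2 the difference was 0.0070 (SE 0.49, limma adjusted p = 0.994), and for SFN -0.12 (SE 0.69, limma adjusted p = 0.931). CDH1 had a difference of -0.99 that missed the threshold (SE 0.43, limma adjusted p = 0.141). These values are on the scale of log2(value + 1), which understates the change of genes with few counts.

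N+PD30 and N+PD24 were also set against each other, without the groups that lacked Nutlin. LAD1 was lower in N+PD30 (log2 fold change -4.46, SE 0.54, limma adjusted p = 0.000484), and so were PKP1 (-4.13, SE 0.47, limma adjusted p = 0.000398) and SFN (-1.48, SE 0.36, limma adjusted p = 0.0121). The SFN call was lost without N+PD24 replicate 2 (-1.46, adjusted p up to 0.0535). CLCA2 was at 5.75, 4.67 and 3.34 CPM in N+PD30 and 5.45, 4.68 and 6.93 in N+PD24, and these libraries overlapped (-0.42, SE 0.25, limma adjusted p = 0.217). PKP2 differed the other way by 0.70 on the log2 scale (limma adjusted p = 0.00319), under the fold threshold, as 31.4% of all genes passed the adjusted p alone. In all, 3 of the 10 genes were lower and none higher, where 13.1% of 15406 genes tested were called and 7.53% were called lower. All 3 passed the low-count filter only through N+PD24, the group where they were high. Their p-values and their number are thus a description, and the number is not set against these shares.

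**Figure D2:**
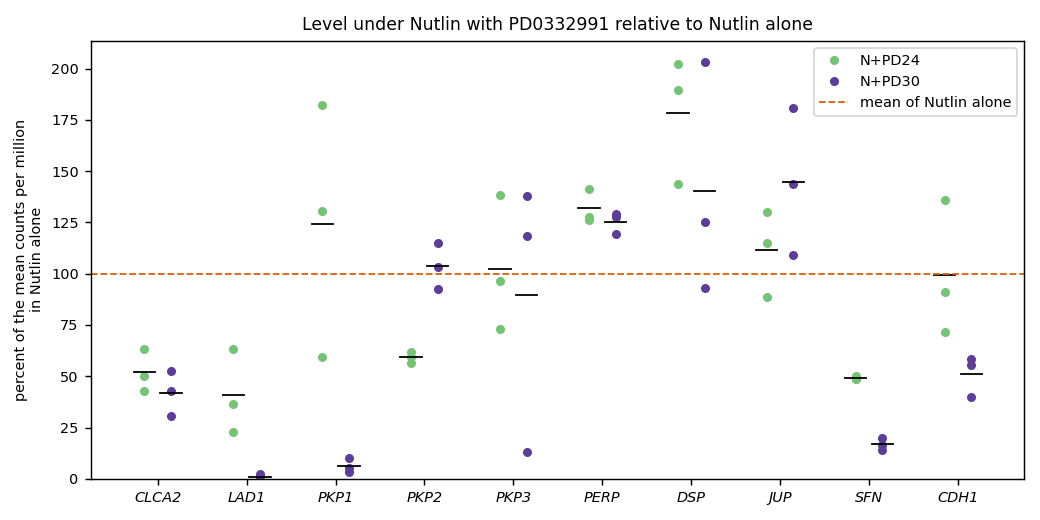
Level of each gene in the N+PD24 (green) and N+PD30 (purple) libraries as a percent of its mean CPM in Nutlin alone (vertical axis, from 0; dashed line at 100). Points are libraries and black bars group means: in N+PD30 the mean of CLCA2 was at 42.0%, PKP1 at 6.21% and LAD1 at 0.998%, and in N+PD24 they were at 52.1%, 124% and 41.0%.

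Against Nutlin alone, the comparison that asks how PD0332991 alters the Nutlin response, the Nutlin libraries are among those that chose the genes, so the members' values are given as a description with no test. By the thresholds 5 of the 10 genes were lower in N+PD30 and none higher, where 22.3% of 15721 genes tested were called and 13.9% were called lower, and nothing is read from that count. The fitted log2 fold changes were -6.71 for LAD1, -4.14 for PKP1, -2.64 for SFN, -1.31 for CLCA2 and -1.01 for CDH1. CDH1 lies at the fold threshold, with values from -1.10 to -0.84 when 1 library was left out. JUP and PERP were at 0.50 and 0.29. Of the 2 known targets, which are no members, MDM2 fell by 1.70 on the log2 scale (edgeR adjusted p = 2.53e-05) and CDKN1A was at -0.78, under the fold threshold.

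In N+PD24 against Nutlin, 12.3% of 15927 genes tested were called and 8.10% were called lower, LAD1 alone of the 10 was past the thresholds, and again nothing is read from that count. LAD1 had a log2 fold change of -1.33, and of -0.98 without N+PD24 replicate 1. PKP1 was at 0.23, with 2.26, 3.16 and 3.91 CPM in Nutlin and 1.84, 4.06 and 5.67 in N+PD24. CLCA2, SFN and PKP2 were at -0.86, -0.93 and -0.72, and DSP at 0.87. The order of group means thus differed between the 3 induced genes. For CLCA2 it ran from Nutlin to N+PD24 and N+PD30, the last 2 overlapping, for LAD1 from Nutlin to N+PD24 with all other groups near 0, and for PKP1 from N+PD24 and Nutlin, which overlapped, to the rest.

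**Figure D3:**
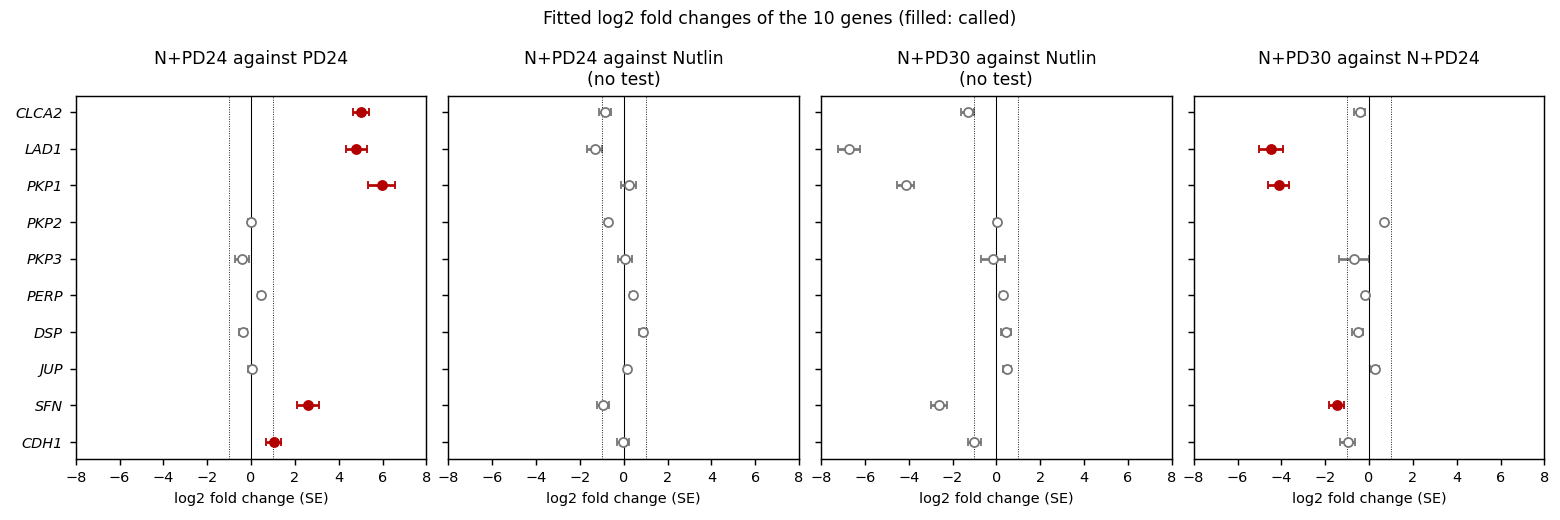
Fitted log2 fold changes (horizontal axis, with SE) of the 10 genes (rows) in 4 comparisons, filled where called and hollow in both comparisons with Nutlin, for which no test is given, with dotted lines at 1 and -1. LAD1 and PKP1 are at -4.46 and -4.13 in N+PD30 against N+PD24, whereas CLCA2 is at -0.42 there and at 5.03 in N+PD24 against PD24. In N+PD24 against PD24, CLCA2, LAD1, PKP1 and SFN passed the low-count filter only through N+PD24. So did LAD1, PKP1 and SFN in N+PD30 against N+PD24, and these fills are a description.

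PD0332991 without Nutlin had its own marks on the comparison genes. In PD24 against DMSO, where 12.6% of 15094 genes tested were called, PKP2, the plakophilin also found in heart muscle, had 93.0, 109 and 91.6 CPM in DMSO and 47.0, 49.8 and 46.6 in PD24 (log2 fold change -1.01, SE 0.11, edgeR adjusted p = 0.000142). The fall stays at the fold threshold, and the call was lost without DMSO replicate 2 (-0.92) and without PD24 replicate 3 (-0.98). PKP2 was equally low in N+PD24, at 44.5 ± 1.97 CPM, and was at 89.5 ± 7.05 in PD30 and 77.7 ± 8.31 in N+PD30. PKP3 was called higher in PD24 (1.02, SE 0.30, edgeR adjusted p = 0.0264) from 21, 14 and 14 counts to 30, 33 and 33, but the call was lost with scaling by total counts (1.00), with DESeq2 and in 4 of the 6 fits that left out 1 library. DSP was at 60.2 ± 9.42 CPM in PD24 against 37.3 ± 6.52 in DMSO (0.71, edgeR adjusted p = 0.00535), under the fold threshold, and 38.3% of genes passed the adjusted p alone.

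In PD30 against DMSO, where 15.2% of 15125 genes tested were called, none of the 6 members tested was called by edgeR with the filter or by DESeq2, and 1 of them, PERP, had an unadjusted p under 0.05. PERP was at 350 ± 30.9 CPM against 237 ± 10.5 (log2 fold change 0.55, edgeR adjusted p = 0.000487), and 48.3% of genes passed the adjusted p alone. SFN, which the filter removed, had 5, 9 and 10 counts in DMSO and 0, 1 and 0 in PD30, a ratio of 0.0386 with a counting interval from 0.000938 to 0.237, and without the filter its log2 fold change was -4.27 (edgeR adjusted p = 0.00208) and DESeq2, run without a filter, called it as well. CLCA2 had 4, 3 and 4 counts in PD30 and 4, 2 and 11 in PD24 against 0, 0 and 1 in DMSO, and LAD1 had 1 and 2 counts in sum, under the floor.

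PKP1 and LAD1 have 1 coding gene between them, TNNT2, which encodes cardiac troponin T, and IGFN1 and TNNI1 on either side. These neighbours were looked at because of their position, after the values of PKP1 and LAD1 had been seen, and are outside the rule for named genes, so no test is given. TNNT2 had 0, 0 and 1 counts in DMSO, 48, 40 and 60 in Nutlin, 8, 27 and 19 in N+PD24 and 3, 2 and 0 in N+PD30. TNNT2 thus stood high and low in the same groups as LAD1. TNNI1, the slow skeletal troponin I gene next to LAD1, was at 0.401 ± 0.192 CPM in DMSO, 1.17 ± 0.353 in Nutlin, 0.965 ± 0.340 in N+PD24 and 0.305 ± 0.148 in N+PD30. IGFN1 on the far side of PKP1 was abundant in every group, at 110 ± 27.9 CPM in DMSO and 126 ± 51.0 in Nutlin, and highest in PD30 at 424 ± 62.3.

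Genes whose profile over the 18 libraries was most like those of the 3 induced genes were sought among 14570 genes, by Pearson's r of log2(CPM + 0.1), as a description across libraries that share their groups. For CLCA2 they were CMBL (r = 0.988), FLJ16779 (0.985) and BLNK (0.979). For LAD1 they were LOC338799 (0.986), SERPINF2 (0.986) and GOLGA6C (0.984), and for PKP1 ZNF300P1 (0.985), FNDC7 (0.981) and LOC100272217 (0.977). CMBL, for example, was at 22.1 CPM in DMSO, 118 in Nutlin, 103 in N+PD24 and 89.2 in N+PD30, whereas SERPINF2 was at 0.258, 5.20, 3.49 and 0.429. LAD1 and PKP1 were more like each other (r = 0.942) than either was like CLCA2 (0.784 and 0.843), and SFN and CDH1 had r of 0.860 and 0.854 with LAD1. DSP and PKP2 ran against all 3 (r from -0.514 to -0.324).

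Other genes of the junctions were counted by lists. Of 12 further desmosome genes 10 were tested in Nutlin against DMSO and 3 rose, where 12.4% of all genes were called higher and 8.42% lower. They were EVPL (log2 fold change 5.85), PPL (1.97) and DSC3 (1.02), and the median was 0.67 in the list and 0.03 over all genes. EVPL was tested only through its counts in Nutlin and could be called higher only, so nothing is read from the count or the median. EVPL and PPL encode envoplakin and periplakin, which join desmosomes to the cornified envelope, and DSC3 is a desmocollin. EVPL had 2, 1 and 1 counts in DMSO, 43, 107 and 69 in Nutlin, 17, 70 and 58 in N+PD24 and 4, 4 and 2 in N+PD30. It was lower in N+PD30 than in N+PD24 (log2 fold change -2.92, limma adjusted p = 0.00253), but the interaction missed the threshold (-2.05, limma adjusted p = 0.0932). EVPL was at low counts in PD24, PD30 and N+PD30 (at most 4 per library), so these p-values are a description.

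Of the adherens junction list 2 of 14 tested rose in Nutlin against DMSO, a share near the 12.4% of all genes. PVRL4, which encodes nectin-4, had 8, 11 and 16 counts in DMSO, 963, 634 and 613 in Nutlin, 329, 381 and 454 in N+PD24 and 356, 787 and 538 in N+PD30. Its mean was 13.4 CPM in N+PD24 and 26.8 CPM in N+PD30, a difference past the adjusted p but under the fold threshold (log2 fold change 0.93, limma adjusted p = 0.00382). It was called in N+PD30 against PD30 (log2 fold change 6.55, edgeR adjusted p = 2.42e-06) and in N+PD24 against PD24 (5.35, limma adjusted p = 1.44e-06), and its level in N+PD30 was not called against Nutlin (0.06, edgeR adjusted p = 0.802). CDH3, P-cadherin, rose with Nutlin (1.63) and also in PD30 against DMSO (1.65, edgeR adjusted p = 0.000561). Of the tight junction list 6 of 21 rose and 2 fell with Nutlin, where 12.4% of all genes were called higher and 8.42% lower. F11R (1.37) and CLDN15 (1.52) were among the first and CLDN12 (-1.32) among the second. Of the 24 tight junction genes 20 were tested in PD30 against DMSO, and the 21 include a gene tested only through its counts in Nutlin. Such a gene could be called higher only, and nothing is read from the count.

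Of 9 hemidesmosome and anchoring filament genes tested 2 rose with Nutlin, where 12.4% of all genes were called higher. ITGB4 (log2 fold change 2.17), an integrin subunit, was among them. Of the epithelial markers other than CDH1, 5 of 12 tested rose with Nutlin and none fell. Over all genes 12.4% were called higher and 8.42% lower. Of the 18 markers in this list 8 were tested in PD30 against DMSO, so some were tested here only through their counts in Nutlin. Those could be called higher only, and nothing is read from the count. OVOL1, a transcription factor of epithelial differentiation among the epithelial markers, had 1, 0 and 0 counts in DMSO, 39, 49 and 56 in Nutlin, 33, 80 and 54 in N+PD24 and 0, 8 and 5 in N+PD30 (interaction -4.06, limma adjusted p = 0.0164). It had at most 5 counts per library in PD24 and PD30. OVOL1 was thus low in all groups of the interaction but N+PD24, so its p-value is a description. Of 10 mesenchymal markers and repressors tested 1 fell with Nutlin and 9 were not called, with a median log2 fold change of -0.15 in the list. TWIST1, a repressor of epithelial genes, was the 1 called lower (-1.62, edgeR adjusted p = 2.03e-05). It also fell in N+PD24 against PD24 (-1.74, limma adjusted p = 5.84e-05), where 2 of these 10 markers were called lower. The interaction term of TWIST1 was 1.39 (limma adjusted p = 0.00411). None of the 6 14-3-3 paralogs of SFN was called with Nutlin, and the other CLCA genes, CLCA1, CLCA3P and CLCA4, were too low to be tested in any comparison.

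**Figure D4:**
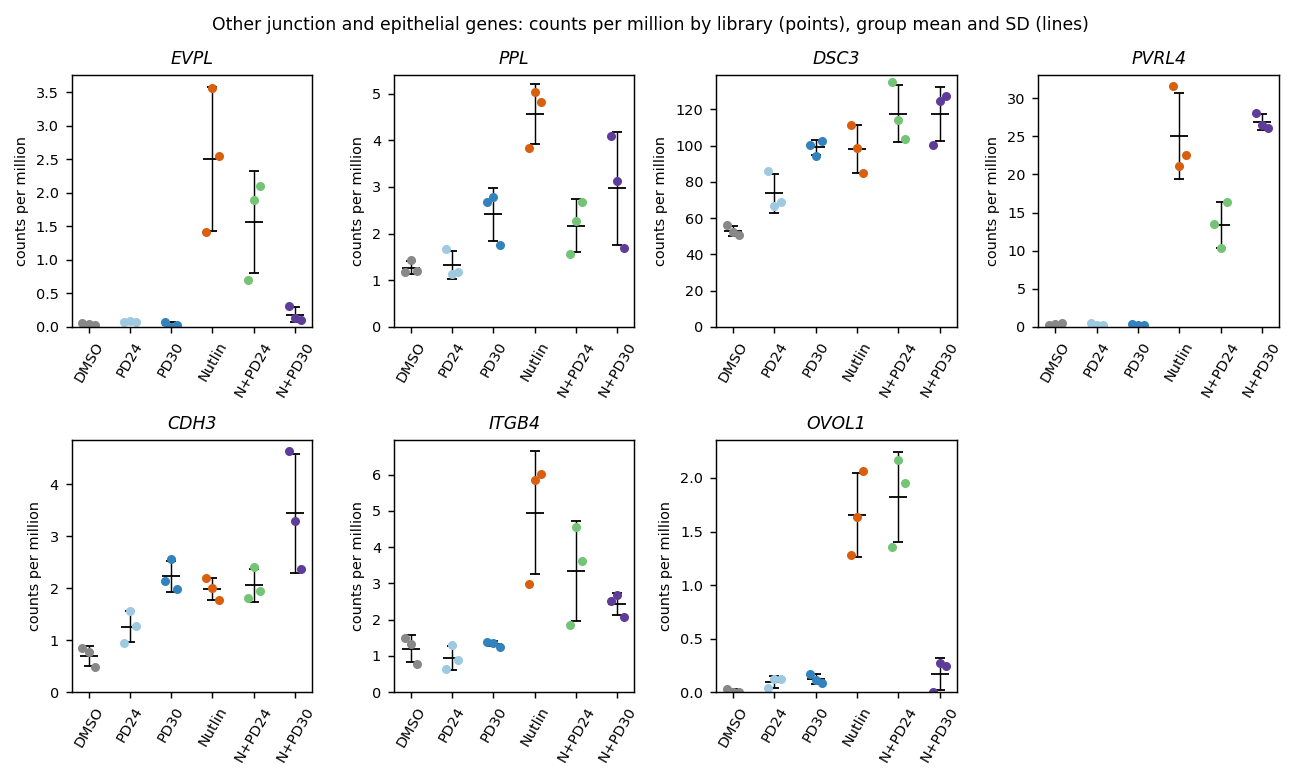
CPM (vertical axis, from 0) of 7 further junction and epithelial genes that rose in Nutlin against DMSO, in the 18 libraries by group, with group mean and 1 SD (n = 3). EVPL and OVOL1 are low in N+PD30 (means of 0.182 and 0.170 CPM), whereas PVRL4 is at 26.8 CPM there and 25.1 in Nutlin.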

How the data were processed

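RNA of SJSA-1 cells was sequenced in 18 libraries (single reads of a TruSeq kit). The authors aligned the reads to hg19 (TopHat, Bowtie 2) and obtained counts for each gene symbol from HTSeq 0.6.0 with its reverse-strand setting. The deposited tables hold counts, although their names call them variance-stabilized, except that N+PD24 is deposited as a signal in which each library had been divided by a size factor. Multiplied back, 100% of those values were whole within 0.001. Deposited base means and the authors' own comparison of Nutlin with DMSO (fold changes and p-values) were not used.

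CPM were computed from library totals (12704845 to 40231041). Of 23368 rows, 28 carried names turned into dates. Groups given as counts were compared with edgeR 4.0.16 (quasi-likelihood test, TMM, filterByExpr), and comparisons with N+PD24 with limma 3.58.1 (trend) on log2(value + 1) of rescaled values, without a replicate block. Genes were called at a Benjamini-Hochberg adjusted p under 0.05 over all genes tested and an absolute log2 fold change over 1. On simulated counts the fits were tested with known fold changes, set in well-counted genes only. That test does not cover genes with few counts, such as the 3 induced genes in the groups without Nutlin. Positions came from GENCODE 44 on GRCh37 and promoters from RefSeq, where 7 of the 10 members matched. The members and lists were chosen with earlier results of these data known. Named genes are the 10 members, CDKN1A and MDM2, at most 4 called genes per list and comparison with the lowest p, and the 3 genes most like CLCA2, LAD1 and PKP1, and 1 gene that this rule names is not reported here. The p53 site search, the promoter composition and the neighbouring genes were added during the analysis. Alternatives were scaling by total counts, no filter, a replicate block, DESeq2 1.42.0, a pseudocount of 0.5, edgeR on recovered reads, and leaving out each library. The replicate numbers paired the samples by the correlation of their deviations in N+PD24 against PD24 (0.213 to 0.516) and N+PD24 against Nutlin (0.425 to 0.654). In N+PD30 against PD30 (0.198 to 0.681) replicate 1 did not correlate best with its own number.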

Additional observations from a re-analysis of the deposited data

Results flagged for a closer look

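The responses of LAD1 and PKP1 to Nutlin differed between the 2 schedules of PD0332991 by the interaction term. The difference, response with PD30 minus response with PD24, was -4.20 on the log2 scale for LAD1 (limma adjusted p = 0.00639, and 0.279 with edgeR on recovered reads) and -4.70 for PKP1 (limma adjusted p = 0.00999). Every N+PD24 library was above every N+PD30 library in both genes, as for 18.6% of all genes. Both genes passed the low-count filter only through N+PD24, the group where they were high, so the p-values and this separation are a description. The N+PD30 libraries include the one with the fewest counts, 12704845, and the part of depth in the difference was not tested.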

How the results depend on the processing

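Of 890 member values recomputed under the alternatives, 810 kept their direction and their side of the thresholds, 22 lost a call, 5 gained one, 47 changed sign and 6 untested values in Nutlin against DMSO moved by more than the replicate spread. The calls of CLCA2, LAD1, PKP1 and SFN in N+PD24 against PD24, and of CLCA2 in N+PD30 against PD30, held in every alternative that gave a value. In the main fits these genes passed the low-count filter only through the group with Nutlin, so they could be called higher only. Nothing is read from the members' calls against Nutlin, whose libraries took part in the choice. Scaling by total counts shifted the median log2 fold change of all genes by -0.13 in Nutlin against DMSO and by less than 0.1 in the other comparisons. The replicate block changed no member call, and the count of called genes went from 555 to 640 in N+PD30 against PD30 and from 1327 to 1708 in the interaction. The replicate numbers do not fully pair the samples in Nutlin against DMSO, N+PD30 against PD30, N+PD30 against Nutlin, PD30 against DMSO, PD24 against DMSO and N+PD30 against N+PD24. In these the lowest correlation of deviations ran from -0.27 to 0.20, and not every library correlated best with its own number. The cause of the changes listed here was not tested.

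Without the filter, 2 members were called in N+PD30 against PD30 and 1, SFN, in PD30 against DMSO, where DESeq2 also called 1, again SFN. In PD24 against DMSO, scaling by total counts and DESeq2 each left 1 member called, and in the interaction edgeR on recovered reads left 1. Leaving out 1 library, the count of genes called in N+PD30 against PD30 ran from 318 (without PD30 replicate 1) to 794, with 356 without N+PD30 replicate 2. Members called ran from 0 (without N+PD24 replicate 1) to 2 (without Nutlin replicate 1 or 3 or N+PD24 replicate 2) in N+PD24 against Nutlin, and from 0 to 1 (SFN, without PD30 replicate 1) in PD30 against DMSO. In PD24 against DMSO they ran from 0 (without DMSO replicate 2) to 2, with 1 without DMSO replicate 3 or any PD24 replicate.

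The sign changes were in values that were not called. With scaling by total counts, N+PD30 against PD30 gave -0.054 for PERP and -0.045 for CDH1, and N+PD24 against PD24 gave -0.065 for JUP. With edgeR on recovered reads, PKP2 in N+PD24 against PD24 was at 0.040, CDH1 in N+PD24 against Nutlin at 0.090 and the interaction of SFN at 0.85, and that of SFN was at 0.34 with a pseudocount of 0.5. Leaving out 1 library, N+PD30 against PD30 ran from -0.54 to 0.68 for PKP3, -0.022 to 0.10 for PERP and -0.051 to 0.22 for CDH1. N+PD24 against PD24 ran from -0.076 to 0.029 for PKP2 and -0.092 to 0.17 for JUP, and N+PD30 against Nutlin from -0.069 to 0.11 for PKP2 and -0.85 to 0.36 for PKP3. N+PD24 against Nutlin ran from -0.10 to 0.69 for PKP1, -0.16 to 0.26 for PKP3 and -0.23 to 0.20 for CDH1, and N+PD30 against N+PD24 from -1.20 to 0.27 for PKP3. The interaction ran from -0.36 to 0.32 for CLCA2, -0.44 to 1.09 for PKP3, -0.34 to 0.19 for DSP and -0.58 to 0.31 for SFN.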
